A study of Mus musculus with 6 samples.

Results

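Histone genes were described in RAW264.7 cells, a mouse macrophage line from a BALB/c tumour, with and without the extract C2S. The members were 67 protein-coding genes of the Hist1, Hist2, Hist3 and Hist4 groups, called clustered here, and 9 histone variant genes (H1f0, H1fx, H2afx, H2afy, H2afz, H2afv, H2afj, H3f3a and H3f3b), 76 of the 52636 genes in the deposited tables. RNA was sequenced from 3 libraries of cells given 150 µg/ml C2S for 24 h and from 3 PM_control libraries of cells given 0 µg/ml. The labels spell out neither C2S nor PM, and all libraries come from 1 cell line. The comparison asks what 24 h with C2S does to transcript levels in macrophages. Whether the 3 libraries of a group came from different cultures is not stated, and the spread behind each p-value may therefore be technical.

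Nucleosomes wrap DNA around an octamer of the core histones H2A, H2B, H3 and H4, and the linker histone H1 binds the DNA between them. Clustered histone genes supply most of this protein during S phase. Their transcripts characteristically end in a stem-loop bound by the protein SLBP in place of a poly(A) tail, although some clustered genes are also known to give polyadenylated transcripts, above all in cells that have stopped dividing. Histone variant genes are expressed outside S phase as well, mostly with poly(A) tails, and supply H3.3, H2A.Z, macroH2A, H2A.X and the H1 variants. The labels name an Illumina TruSeq RNA kit and do not say whether RNA with poly(A) tails was selected.

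The 54 Hist1 genes lay between 21715763 and 23934851 on chromosome 13, the 10 Hist2 genes between 96219865 and 96270132 on chromosome 3, the 2 Hist3 genes on chromosome 11 and the Hist4 gene on chromosome 6 (GENCODE M21, GRCm38). The stem-loop consensus, 16 bases long, was searched in the annotated protein-coding transcripts of all members. It was found on the sense strand of 44 clustered genes and of 1 variant gene, H2afx, and its reverse complement in none of the 76. Among 21825 other protein-coding genes, 27 (0.124%) held it anywhere in a transcript and 0 held it in the last 100 bases, against 22 of the 67 clustered genes with it in that window. The annotated transcripts of 3 clustered genes stopped within 20 bases of the stem-loop, those of 19 ran 21 to 100 bases past it, and those of 22 ran on for more than 100 bases. Transcripts of the other 23 clustered genes held no match. Some of these annotated transcripts are short, with 381 bases in Hist2h2bb and 312 in Hist1h4k. A missing match therefore does not show that the gene lacks a stem-loop. The stem-loops of 6 genes described below, with 5 bases on either side, are printed here. The consensus fixes most of the bases, so matches had to look alike, and only the bases it leaves free can differ. Capitals mark the 16 bases of the match, 5′ to 3′ in the sense strand.
Hist1h1c: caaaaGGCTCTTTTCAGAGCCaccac
Hist2h2aa2: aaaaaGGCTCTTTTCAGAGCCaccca
Hist1h2be: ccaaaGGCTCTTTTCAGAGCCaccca
Hist1h4i: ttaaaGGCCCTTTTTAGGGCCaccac
Hist2h4: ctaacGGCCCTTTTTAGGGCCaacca
H2afx: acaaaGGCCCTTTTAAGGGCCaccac
The H1, H2A and H2B genes Hist1h1c, Hist2h2aa2 and Hist1h2be have the same 16 bases, and the H4 genes Hist1h4i and Hist2h4 have another version in common. H2afx, a variant of H2A, differs from the version of Hist1h4i and Hist2h4 only in the loop. Other H4 genes, such as Hist1h4b and Hist1h4c, have other versions. The annotated transcript ran 840 bases past the stem-loop in Hist1h1c, 35 in Hist2h2aa2, 1861 in Hist1h2be, 330 in Hist1h4i, 1257 in Hist2h4 and 822 in H2afx.

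Promoter windows of 300 bases, from 250 before to 50 after the RefSeq start (GRCm38.p6), were at hand for 70 of the 76 genes. They were searched on both strands for TATAAA, for CCAAT and for the octamer ATTTGCAT, a known element of H2B promoters. CCAAT was present in 85.7% of 63 clustered windows, against 37.4% of all 32851 promoter windows, TATAAA in 55.6% against 13.6%, and the octamer in 22.2% against 1.74%. The octamer was found in 7 of 17 H2B windows and 7 of 18 H2A windows and in 0 windows of H1, H3 or H4. Promoters of 3 genes are printed as examples with and without the motifs, matches in capitals: Hist2h2bb (chr3:96269450-96269749, plus strand) and H3f3b (chr11:116024455-116024754, minus strand), which were higher with C2S, and H1f0 (chr15:79027962-79028261, plus strand), which was lower.
Hist2h2bb: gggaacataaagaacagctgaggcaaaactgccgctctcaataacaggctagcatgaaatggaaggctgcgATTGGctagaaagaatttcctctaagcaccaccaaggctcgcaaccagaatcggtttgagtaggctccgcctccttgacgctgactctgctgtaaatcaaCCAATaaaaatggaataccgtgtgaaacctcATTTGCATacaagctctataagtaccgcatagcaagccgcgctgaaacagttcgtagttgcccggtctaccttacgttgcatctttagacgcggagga
H3f3b: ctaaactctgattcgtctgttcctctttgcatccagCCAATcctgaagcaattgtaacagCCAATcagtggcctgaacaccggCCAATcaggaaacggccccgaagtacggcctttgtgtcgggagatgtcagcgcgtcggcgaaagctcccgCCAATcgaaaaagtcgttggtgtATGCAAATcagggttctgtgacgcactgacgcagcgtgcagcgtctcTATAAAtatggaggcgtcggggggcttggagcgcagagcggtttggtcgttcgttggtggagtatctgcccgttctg
H1f0: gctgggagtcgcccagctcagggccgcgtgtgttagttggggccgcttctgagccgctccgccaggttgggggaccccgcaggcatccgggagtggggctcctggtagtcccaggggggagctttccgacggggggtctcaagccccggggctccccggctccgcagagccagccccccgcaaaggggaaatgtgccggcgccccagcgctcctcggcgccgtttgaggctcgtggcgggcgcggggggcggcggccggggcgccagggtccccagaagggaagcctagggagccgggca
The Hist2h2bb window held the octamer and CCAAT on both strands, the H3f3b window held TATAAA, the octamer on the reverse strand and several CCAAT matches, and the H1f0 window held none of the 3 motifs. Among called genes with a window, motifs did not go with the calls in a fixed way. H2afy, called higher, also held none of the 3. Hist1h2br and Hist2h2aa2, called higher, held CCAAT without TATAAA or the octamer. TATAAA was found in 0 of the 5 windows of clustered genes called higher, which cover 4 genes, against 55.6% of all clustered windows. No window was at hand for Hist1h2bc, Hist2h2be or H2afx, which were called as well. A match here is a description of letters, not of a bound factor.

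Total estimated counts ranged from 8594485 to 10491307 in C2S libraries and from 9149574 to 10665869 in PM_control libraries. Values per gene are given as CPM, counts scaled to library depth after TMM normalization, which matches libraries on the bulk of their genes. On this scale 3 counts in 1 library amount to 0.295 to 0.361 CPM with C2S and 0.275 to 0.315 CPM in PM_control, a limit that reflects counting error alone. All 8 macrophage markers checked were present in every library, with Csf1r between 2790 and 3950 CPM. Of 13 markers of other cell types, Cd3e, Cd8a, Ms4a1, Epcam, Krt8 and Col3a1 were at 0 in every library. The 13 summed to 4.64 to 10.5 CPM with C2S, against 0.734 to 1.11 CPM in PM_control, mostly through Pecam1 (3.28 to 8.3 CPM with C2S and 0.101 to 0.315 CPM in PM_control), which macrophages can also express. The B cell marker Cd79a was at 2.16, 0.962 and 1.25 CPM with C2S, against 0.0918, 0.303 and 0 CPM in PM_control. The part of these markers in the histone values was not tested.

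Clustered histone genes gave few reads in either group. At least 1 count was seen for 41, 42 and 43 of the 67 genes in the C2S libraries and for 44, 41 and 42 in the PM_control libraries, so the groups did not separate. At least 10 counts were seen for 16, 14 and 14 genes with C2S, against 14, 11 and 13 in PM_control. The share of each library's counts that fell on clustered genes was 0.0133%, 0.0141% and 0.0153% with C2S, against 0.012%, 0.0132% and 0.0126% in PM_control. For the 9 variant genes, each of which had counts in every library, the share was 0.233%, 0.215% and 0.229% with C2S, against 0.209%, 0.21% and 0.23% in PM_control. Over all libraries, 9 clustered genes had 0 counts, and Hist1h1c, Hist1h2bc and Hist2h2be held 72.1% of the clustered counts, with Hist1h1c alone at 54.5%. The 16 clustered genes with an annotated length of at least 1000 bases held 80.3% of the clustered counts. Of those 16, 5 passed the count filter of the test, against 6 of the 51 shorter genes.

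**Figure D1:**
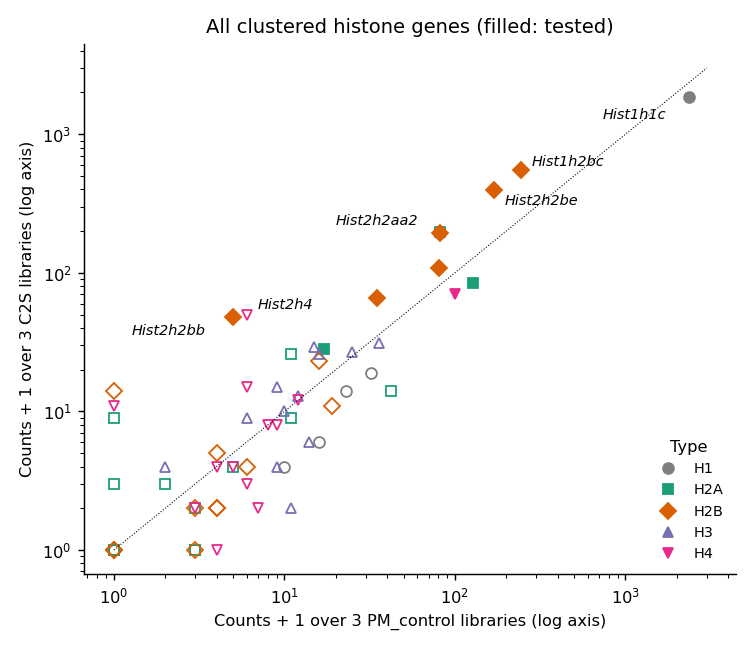
Counts plus 1 of the 67 clustered histone genes, summed over the 3 C2S libraries (y, log axis) and the 3 PM_control libraries (x, log axis), not corrected for depth; symbols give the histone type, filled symbols are the 11 genes that passed the count filter and the dotted line marks equal counts. Most genes lie in the lower left with few counts, Hist1h1c lies far above the rest, and the filled H2B symbols lie above the line.

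Of the 76 genes, 20 passed the filter, 11 clustered and 9 variant, and 11 of those changed (edgeR's quasi-likelihood test over 11561 genes with Benjamini-Hochberg adjustment, threshold 0.05), against 55.4% of all tested genes. Among clustered genes 6 were higher and 0 lower (0 lower also with DESeq2 or at an unadjusted p of 0.05), and among variants 3 were higher and 2 lower. Over all tested genes 27% were higher and 28.4% lower. The median log2 fold change was 1.09 over the 11 tested clustered genes and 0.19 over the 9 variants, against 0 over all tested genes. A gene that passed the filter through the group where it is high had to differ, as Hist2h2bb did with 19, 18 and 10 counts with C2S and 1, 2 and 1 in PM_control. The clustered count and median therefore describe these 11 genes and not the 67.

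Most of the clustered genes that rose encode H2B. Of 18 clustered H2B genes, 6 were tested and 5 rose, among them Hist1h2bc, Hist2h2be and Hist2h2bb. Hist1h2bc (chr13:23684199-23692908, 2 exons) had 22.5, 17 and 20.7 CPM with C2S, against 7.16, 7.69 and 9.34 CPM in PM_control, and the groups did not overlap. Its log2 fold change was 1.32 ± 0.16 (SE; edgeR, adjusted p = 2.23e-06). Hist2h2be (chr3:96221119-96223738, 1 exon) had 13, 16.2 and 14.4 CPM with C2S and 6.33, 3.74 and 6.51 CPM in PM_control, again without overlap. Its log2 fold change was 1.39 ± 0.20 (edgeR, adjusted p = 1.49e-05). Neither gene overlaps exons of another gene. Hist2h2be shares none of its stretches of 50 bases with transcripts of other genes, whereas Hist1h2bc shares 30.6% of them. Each has an H2A gene beside it on the opposite strand, and those neighbours gave almost no reads. Hist1h2ac, 251 bases from Hist1h2bc, had 2 counts over the C2S libraries and 0 over the PM_control libraries. Hist2h2ac, 239 bases from Hist2h2be, had 2 counts with C2S and 1 in PM_control.

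The other H2B values are less certain. Hist2h2bb (chr3:96269752-96270132) had 1.87, 2.16 and 1.13 CPM with C2S, against 0.0918, 0.202 and 0.105 CPM in PM_control, without overlap. Its log2 fold change was 3.58 ± 0.62 (edgeR, adjusted p = 0.000116), but it rests on 4 counts in PM_control in all, and the gene passed the filter only through its C2S counts. The whole of its exon overlaps Gm20628 on the opposite strand, which was itself higher with C2S, with 203 counts against 45 (log2 fold change 2.32; edgeR, adjusted p = 1.25e-06). The sources used here do not say that counting used strand, and reads of the 2 genes cannot be told apart without it. Hist1h2bq and Hist1h2br share 100% and 99.8% of their 50-base stretches with other genes. RSEM divided the reads about evenly between them except in C2S replicate 3, with 0 counts for Hist1h2bq and 97 for Hist1h2br. Hist1h2bq had 5.5, 6.25 and 0 CPM with C2S, against 3.21, 2.22 and 2.41 CPM in PM_control, and was not called (edgeR, adjusted p = 0.433). Hist1h2br had 4.52, 6.01 and 11 CPM with C2S, against 3.12, 2.43 and 2.41 CPM in PM_control, and was called higher (log2 fold change 1.42 ± 0.31; edgeR, adjusted p = 0.00105). Without C2S replicate 3, where Hist1h2bq is at 0, Hist1h2bq was called as well (log2 fold change 1.16; edgeR, adjusted p = 0.00344). Their sum is steadier, at 10, 12.3 and 11 CPM with C2S and 6.33, 4.65 and 4.83 CPM in PM_control, a log2 ratio of 1.07.

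Hist1h2be was the weakest of the 5 calls. It had 1.28, 2.52 and 3.51 CPM with C2S, against 1.1, 0.91 and 1.36 CPM in PM_control, and C2S replicate 1 lay within the PM_control range. Its log2 fold change was 1.09 ± 0.42 (edgeR, adjusted p = 0.037), and over its 16 alternatives the adjusted p ran from 0.01 to 0.253. The call was lost under 9 of them, among them DESeq2 (adjusted p = 0.054) and each setting without C2S replicate 2 (edgeR, 0.0749) or 3 (0.209), or without PM_control replicate 1 (0.0902), 2 (0.118) or 3 (0.0534). It overlaps Hist1h1e on the same strand over 11.2% of its exon length.

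Clustered H2A genes gave 1 call among 3 tested of 18. Hist2h2aa2 (chr3:96239749-96240276) had 6.48, 5.77 and 9.17 CPM with C2S, against 2.48, 2.22 and 3.36 CPM in PM_control, without overlap (log2 fold change 1.41 ± 0.26; edgeR, adjusted p = 0.00023). Its near-identical partner Hist2h2aa1 had 0.491, 1.32 and 1.25 CPM with C2S and 0, 1.11 and 0.525 CPM in PM_control and was not called (edgeR, adjusted p = 0.304). Both share 100% of their 50-base stretches with other genes. Stretches were compared on both strands, so the genes on the opposite strand described below give 100% by themselves. Expected counts were not whole in 5 libraries for Hist2h2aa1 and in 6 for Hist2h2aa2. Reads were thus divided, and the sum of the pair is given as well. It was 6.97, 7.09 and 10.4 CPM with C2S and 2.48, 3.34 and 3.88 CPM in PM_control, a log2 ratio of 1.34. Each lies wholly over a gene on the opposite strand, and the one at Hist2h2aa2, Gm20632, was also higher with C2S (289 against 126 counts; log2 fold change 1.35; edgeR, adjusted p = 0.000139). Hist3h2a (chr11:58954685-58956830) had 3.63, 2.65 and 2.72 CPM with C2S and 3.21, 4.25 and 5.25 CPM in PM_control and was not called (edgeR, adjusted p = 0.16). It shares 33% of its exon length with Trim17 on the same strand, which had 311 counts with C2S and 12 in PM_control, so the Hist3h2a level is uncertain.

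The linker histone gene Hist1h1c had the highest count of the clustered genes and was not called. It had 59.6, 67.9 and 76.1 CPM with C2S, against 74.8, 86.3 and 72 CPM in PM_control, and the groups overlapped (log2 fold change -0.20 ± 0.09; edgeR, adjusted p = 0.0896). The call depends on the setting: Hist1h1c was lower with library sizes alone (-0.28; edgeR, adjusted p = 0.0159), without the low-count filter (-0.22; 0.03) and without C2S replicate 3 (-0.28; 0.025), and the adjusted p ran from 0.0159 to 0.394 over its 16 alternatives. The other 5 clustered H1 genes were not tested, and Hist1h1t, a testis form, had 0 counts. Of 13 clustered H4 genes only Hist1h4i (chr13:22040636-22041362) was tested. It had 2.06, 2.16 and 3.4 CPM with C2S and 3.21, 4.25 and 2.31 CPM in PM_control, overlapping groups (log2 fold change -0.36 ± 0.33; edgeR, adjusted p = 0.36). None of the 12 clustered H3 genes, which encode H3.1 and H3.2, passed the filter.

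**Figure D2:**
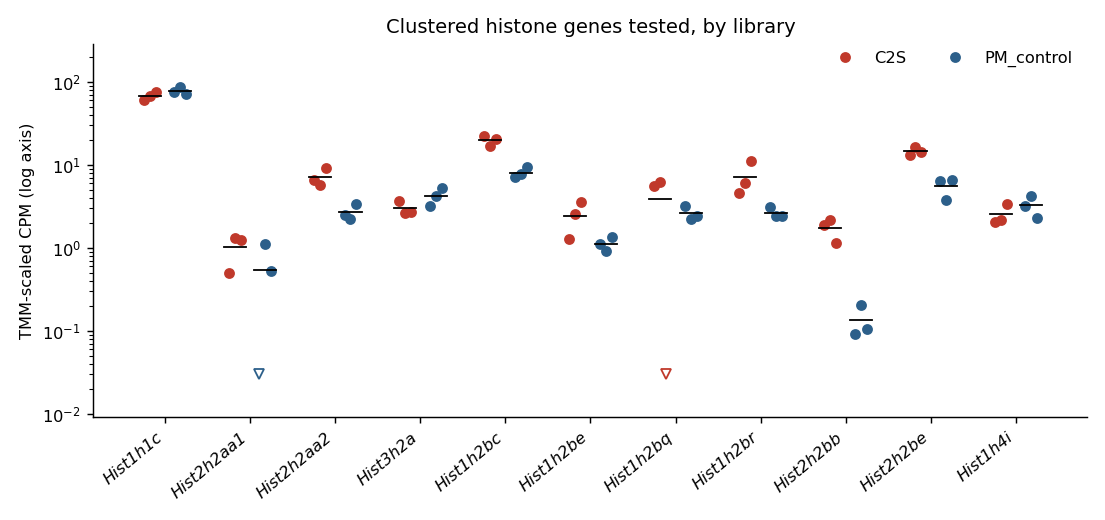
TMM-scaled CPM (log axis) of the 11 clustered histone genes that passed the count filter, by gene; each point is 1 library, lines are group means, and open triangles at the bottom mark libraries at 0. C2S points lie above all PM_control points for Hist1h2bc, Hist2h2be, Hist2h2bb, Hist1h2br and Hist2h2aa2, and the groups overlap for the other 6 genes.

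The groups did not overlap in 5 of the 11 tested clustered genes and in 6 of the 9 variants, against 61.1% of all tested genes. Summing genes by type lessens the effect of dividing reads between paralogs of that type. It does not deal with reads that could also come from genes outside the type, such as those overlapping Hist2h2bb and Hist2h2aa2. Clustered H2B genes summed to 51.2, 51.9 and 52.3 CPM with C2S, against 22.9, 17.9 and 24.6 CPM in PM_control, a log2 ratio of 1.25. The H2B groups stood well apart, while those of H1, H3 and H4 overlapped. Clustered H2A genes summed to 13.1, 11.8 and 15.4 CPM with C2S and 7.34, 10.1 and 12.2 CPM in PM_control (log2 ratio 0.44), and the lowest C2S value lay just under the highest PM_control value. The H2A ratio turned to -0.20 without Hist2h2aa2, and it was 0.27 without PM_control replicate 1. Clustered H1 genes summed to 69.3 ± 7.76 CPM with C2S and 80.2 ± 6.48 CPM in PM_control (SD, n = 3 each; log2 ratio -0.21). Clustered H3 genes summed to 6.11 ± 1.59 CPM with C2S and 5.09 ± 1.11 CPM in PM_control, and clustered H4 genes to 6.44 ± 1.29 CPM with C2S and 5.2 ± 1.45 CPM in PM_control. In raw reads the H3 sum was 46, 64 and 54 counts with C2S and 43, 61 and 49 in PM_control, and no H3 difference was detectable at this depth. Sums over members carry no test here.

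**Figure D3:**
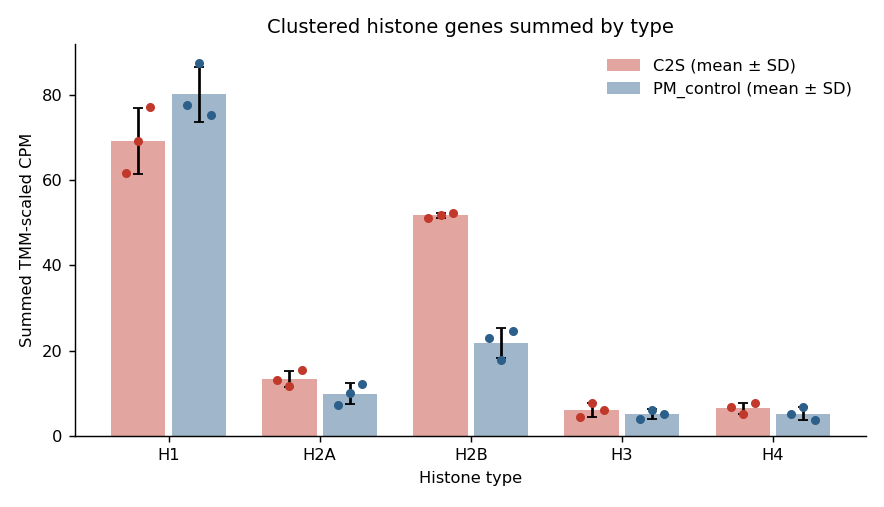
Summed TMM-scaled CPM of clustered histone genes by histone type; bars are means with SD over 3 libraries per group and points are libraries. The H2B sum is 51.8 CPM with C2S and 21.8 CPM in PM_control, while the bars of the other 4 types lie closer together.

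The 56 clustered genes below the filter held 428 counts over the C2S libraries and 412 over the PM_control libraries. Of these, 9 had no count and the other 47 had between 2 and 65 counts over all 6 libraries. When the filter was dropped, 4 of them were called higher and 1 lower, all named here after their values were seen, against 35.9% of all 19753 genes tested in that setting (18.1% higher and 17.8% lower). Hist2h4 (chr3:96261682-96263311) had 25, 8 and 16 counts with C2S, against 2, 1 and 2 in PM_control, and was higher (log2 fold change 3.3; edgeR without the filter, adjusted p = 2.51e-05). It shares 1.01% of its 50-base stretches with other genes and its exon overlaps none. Hist1h2bp had 7, 1 and 5 counts with C2S and 0 in each PM_control library. Hist1h4n had all of its 10 counts and Hist1h2an all of its 8 in a single C2S library, so those calls rest on 1 library each. Hist1h2ae was lower, with 4, 3 and 6 counts with C2S and 7, 16 and 18 in PM_control (edgeR without the filter, adjusted p = 0.0436).

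Among the variants, the H3.3 gene H3f3b rose and the H1 variant H1f0 and the H2A variant H2afx fell, while the H2A.Z genes were not called. H3f3b (chr11:116021912-116027962) had 848, 835 and 899 CPM with C2S, against 484, 507 and 548 CPM in PM_control, with a wide gap between the groups. Its log2 fold change was 0.75 ± 0.06 (edgeR, adjusted p = 3.65e-08). H3f3a (chr1:180800832-180813943), which encodes the same protein, had 333, 323 and 332 CPM with C2S and 288, 278 and 302 CPM in PM_control (log2 fold change 0.19 ± 0.06; edgeR, adjusted p = 0.0101). That smaller call was lost with library sizes alone (edgeR, adjusted p = 0.151), on log2(TPM + 1) (limma, 0.279) and without PM_control replicate 2 (edgeR, 0.07), and ran from 0.00239 to 0.279 over its 16 alternatives. H3f3a also overlaps Gm17275 on the opposite strand over 18.2% of its exon length, and that gene was also higher (log2 fold change 0.28; edgeR, adjusted p = 0.00352). H3f3a shares 29.2% of its 50-base stretches with 42 other genes, and its expected counts were not whole in 4 libraries. In TPM, which scales by transcript length and allows genes to be compared, H3f3b made up 51.5% to 52.3% of the H3.3 transcripts with C2S, against 41.3% to 44.1% in PM_control. The H3.3 genes together stood at 1370 ± 28.2 TPM with C2S and 1080 ± 56.1 TPM in PM_control (SD, n = 3 each). All clustered H3 genes together stood at 23 ± 5.65 TPM with C2S and 23.8 ± 5.01 TPM in PM_control. Whether clustered H3 transcripts without poly(A) tails were sequenced is not stated, so H3.3 and clustered H3 levels may not be comparable.

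H2afx (chr9:44334694-44336077), whose product H2A.X is phosphorylated at DNA breaks, had 206, 204 and 211 CPM with C2S, against 305, 318 and 321 CPM in PM_control. The libraries of each group lay close together, and the log2 fold change was -0.61 ± 0.06 (edgeR, adjusted p = 1.06e-07). Its exon overlaps Gm44335 over 10.2% of its length, and that gene had 0 counts. H2afy (chr13:56073619-56136361), which encodes macroH2A, a variant with a large extra domain, had 188, 177 and 175 CPM with C2S and 154, 143 and 154 CPM in PM_control. It was called higher (log2 fold change 0.26 ± 0.06; edgeR, adjusted p = 0.00182), but not on log2(TPM + 1) (0.12; limma, adjusted p = 0.231), with a range of 0.000402 to 0.232 over its 16 alternatives. H2afz (chr3:137864487-137866922), the more abundant H2A.Z gene, had 581, 500 and 540 CPM with C2S and 513, 508 and 555 CPM in PM_control (log2 fold change 0.04 ± 0.07; edgeR, adjusted p = 0.604). It shares 63.8% of its 50-base stretches with 6 other genes. H2afv, the other H2A.Z gene, had 28.4, 25 and 23.1 CPM with C2S and 22.5, 20.6 and 22.8 CPM in PM_control (edgeR, adjusted p = 0.11). H2afj had 74.5, 45.6 and 63.6 CPM with C2S and 63.6, 66.5 and 75.8 CPM in PM_control, the C2S values being widely spread (log2 fold change -0.16 ± 0.13; edgeR, adjusted p = 0.312). Without C2S replicate 1, H2afj was called lower (-0.32; edgeR, adjusted p = 0.0343; range over its 16 alternatives 0.0343 to 0.932).

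H1f0 (chr15:79028450-79030504), a linker histone known to accumulate in cells that have left the cycle, had 144, 113 and 126 CPM with C2S, against 214, 203 and 225 CPM in PM_control. The groups did not overlap, and the log2 fold change was -0.74 ± 0.08 (edgeR, adjusted p = 5.01e-07). H1fx, another H1 variant, was low, with 2.46, 1.2 and 1.81 CPM with C2S and 1.19, 1.52 and 1.78 CPM in PM_control (edgeR, adjusted p = 0.517), and 17.5% of its exon length overlaps Gm5577. In mean TPM, the order of the variants with C2S was H2afz (975), H3f3b (713), H3f3a (659), H2afx (260), H2afy (205), H2afj (177), H1f0 (89.2), H2afv (58) and H1fx (2.69). In PM_control it was H2afz (993), H3f3a (618), H3f3b (461), H2afx (427), H2afj (193), H2afy (188), H1f0 (161), H2afv (55.1) and H1fx (2.38). H3f3b stood above H3f3a in all C2S libraries and below it in all PM_control libraries. H2afj and H2afy overlapped in both groups, so their order is not resolved. In bulk RNA, less RNA per cell and fewer cells expressing a gene cannot be told apart.

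**Figure D4:**
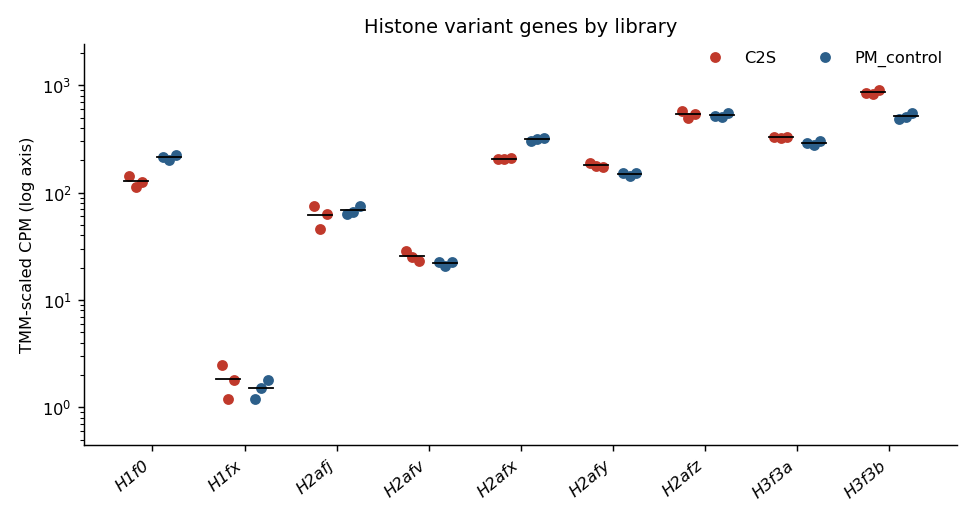
TMM-scaled CPM (log axis) of the 9 histone variant genes, by gene; each point is 1 library and lines are group means. C2S points lie above all PM_control points for H3f3b, H3f3a, H2afy and H2afv and below them for H1f0 and H2afx.

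Clustered genes together stood at 358, 391 and 383 TPM with C2S, against 279, 285 and 265 TPM in PM_control, and variant genes together at 3280, 2970 and 3160 TPM with C2S, against 3080, 2970 and 3240 TPM in PM_control. The clustered sum was thus 10.9% to 13.2% of the variant sum with C2S and 8.17% to 9.61% in PM_control, ranges that do not overlap. The labels do not say whether RNA with poly(A) tails was selected. These shares describe the RNA that was sequenced, and clustered transcripts without such tails may be missing from them. TPM divides by the effective length, which is small for transcripts as short as these, and Hist1h2br alone averaged 81.8 TPM with C2S and 33.4 TPM in PM_control. In CPM, the clustered sum was 147 ± 10.8 with C2S and 122 ± 5.76 in PM_control (log2 ratio 0.27), and the variant sum 2330 ± 96.7 with C2S and 2100 ± 91.9 in PM_control (log2 ratio 0.15). Single genes weigh heavily on both sums, in opposite directions. Without Hist1h1c the clustered log2 ratio rose to 0.83, and without H3f3b the variant log2 ratio fell to -0.11.

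**Figure D5:**
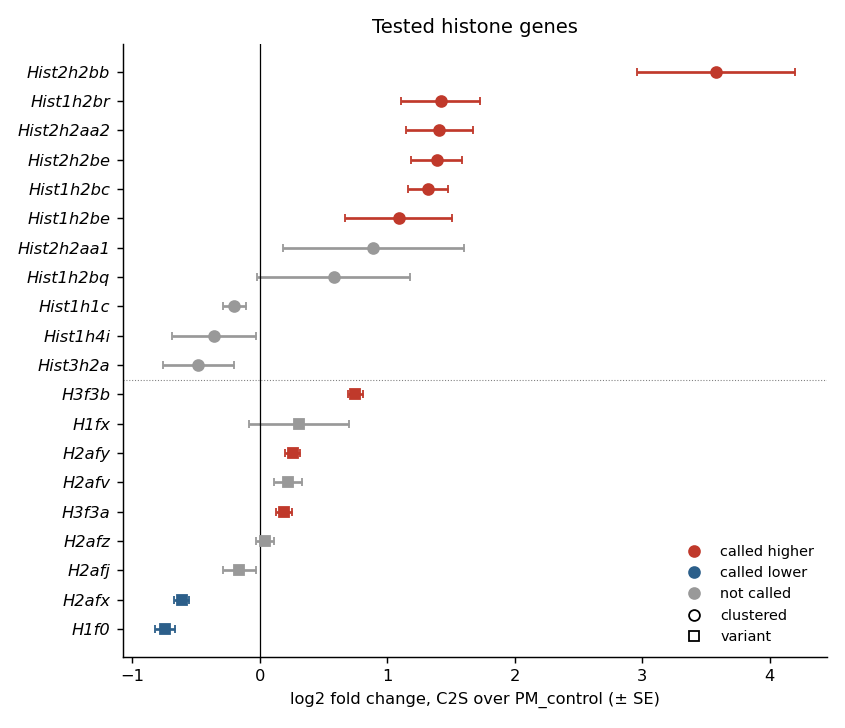
Log2 fold change of C2S over PM_control with its SE (x) for the 20 tested histone genes, clustered above the dotted line and variants below it; colours mark calls by edgeR at an adjusted p of 0.05. Called clustered genes lie between 1.09 and 3.58, and called variants lie between -0.74 and 0.75. The SE is 0.16 to 0.62 for the called clustered genes and 0.06 to 0.08 for the called variants. Small changes were therefore harder to call in those clustered genes, and the 2 ranges cannot be compared as sizes of effect.

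Gene structure also moved with the outcome over all genes. Of 185 tested nuclear protein-coding genes with 1 exon other than clustered histone genes, 29 were higher and 93 lower (median log2 fold change -0.56). Of the 7 tested clustered genes with 1 exon, 3 were higher and 0 lower (median 0.89), and of the 4 with more exons 3 were higher and 0 lower (median 1.21). Among the variants, both genes called lower, H1f0 and H2afx, have 1 exon, and the 3 called higher have between 5 and 9. H1fx also has 1 exon and was not called (log2 fold change 0.31). H2afv and H2afz have 5 exons and were not called either. The part of exon number in these results was not tested.

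Factors that transcribe and process clustered histone transcripts fell more often than they rose. Of 22 listed names 20 matched and were tested, with 13 lower and 3 higher, against 28.4% lower and 27% higher over all tested genes (median log2 fold change -0.28, against 0). Casp8ap2, a component of the histone locus body, had 15.3, 14.3 and 14.7 CPM with C2S, against 29.7, 29.2 and 30.1 CPM in PM_control (edgeR, adjusted p = 6.49e-07). Ccne2 (-1.62 ± 0.15), a cyclin that activates CDK2 at S phase entry, and Cstf2t (-1.46 ± 0.10), a paralog of a cleavage factor, were also lower (edgeR, adjusted p = 1.38e-07 and 1.94e-09). Slbp, which binds the stem-loop, had 98.1, 99.3 and 91.6 CPM with C2S, against 68.7, 69.3 and 71.5 CPM in PM_control, so it rose (log2 fold change 0.46 ± 0.07; edgeR, adjusted p = 3.03e-05). Hinfp (0.73 ± 0.07), a factor of H4 promoters, and Sympk (0.40 ± 0.06), a scaffold of the cleavage complex, were also higher. Npat, the coactivator of clustered histone genes, was lower (-0.57 ± 0.10; edgeR, adjusted p = 0.000103) and is named beyond the rule for its role.

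Of 29 tested histone chaperones and exchange factors, 8 were higher and 10 lower (median 0.03), close to the 27% and 28.4% over all tested genes. Ubn1, a subunit of the HIRA complex that deposits H3.3, had 282, 303 and 292 CPM with C2S, against 116, 121 and 108 CPM in PM_control (log2 fold change 1.35 ± 0.06; edgeR, adjusted p = 1.81e-11). Hira itself, named beyond the rule for its role, was lower by a small amount (-0.21 ± 0.06; edgeR, adjusted p = 0.0102). Ep400 (0.72 ± 0.08) and Ino80 (0.51 ± 0.07), remodellers of H2A.Z nucleosomes, were higher. Hjurp (-1.23 ± 0.07), the chaperone of the centromeric variant CENP-A, Chaf1a (-0.65 ± 0.07), which deposits H3.1 at replication, and Supt16 (-0.45 ± 0.06), a subunit of FACT, were lower. The CENP-A gene Cenpa was not called (-0.05 ± 0.06; edgeR, adjusted p = 0.53), and the second macroH2A gene H2afy2 had 8 counts with C2S and 5 in PM_control. Of 20 genes of DNA synthesis, 8 were lower and 3 higher (median -0.17), against 28.4% lower and 27% higher over all tested genes. The 11 called in either direction are close to the 55.4% over all tested genes. Fen1 (-1.04 ± 0.06), Rrm2 (-0.52 ± 0.06) and Rrm1 (-0.31 ± 0.06) were lower, and Cdt1 (0.48 ± 0.06), E2f1 (0.29 ± 0.07) and Cdc45 (0.27 ± 0.08) were higher. Fen1, Chaf1a, Hira, Supt16 and Ccne2 share 78.8%, 52.5%, 44.7%, 21% and 17.4% of their exon length with another gene, so their values are less certain. The part of these genes in the histone values was not tested.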

How the data were processed

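RNA of 3 C2S and 3 PM_control libraries was analysed, grouped by sample title and treatment label. Per the series design text, the authors trimmed reads with fastp, aligned them to mm10 with STAR and counted them per gene with RSEM; no version, gene annotation or strand setting is stated. The authors deposited expected counts (RSEM's estimated reads, in which reads of similar genes are divided) and TPM per gene, per the file headers. Members were matched by gene ID to GENCODE M21 (GRCm38), which held 52489 of 52636 genes. RSEM had divided reads for 33 of the 67 clustered genes, going by values further than 0.005 from whole in at least 1 library. Of the 67, 34 shared over 50% of their 50-base stretches, a length chosen here, with transcripts of other genes. Stretches were compared on both strands, so a gene overlapping on the opposite strand adds to the share.

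After rounding, filterByExpr (at least 10 counts in enough libraries and 15 in total) kept 11561 genes, which hold 99.85% of counts. Differences were tested by quasi-likelihood in edgeR (version 4.0.16) under R 4.3.3 with TMM scaling and group as the only term; the procedure was tested on simulated data. The SE is the size of the log2 fold change divided by the square root of F and is approximate. Libraries of a group differed by more than sampling noise (chi-square over degrees of freedom 4.3 to 6.46). Same-numbered libraries did not deviate together (r = -0.011, 0.065 and 0.028), so numbers were not taken as pairs.

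Members, lists and tests were chosen with earlier results of these data known. The naming rule took all 9 variants, the tested clustered genes, and up to 3 called genes per direction and list by adjusted p. Alternatives were RLE and upper quartile scaling, library sizes alone, DESeq2 (version 1.42.0), no low-count filter, a filter of 1 CPM in 3 libraries, expected counts left unrounded, limma (version 3.58.1) on log2(TPM + 1) or log2(TPM + 0.1) where mean TPM reached 1, the replicate number as a block, and leaving out each library. Leaving out members with shared or overlapping sequence was chosen after the data were seen. Stem-loops are from GENCODE M21 transcripts and promoters from RefSeq (GRCm38.p6).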

Additional observations from a re-analysis of the deposited data

How the results depend on the processing

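The calls of H3f3b, H1f0, H2afx, Hist1h2bc, Hist2h2be, Hist2h2bb, Hist1h2br and Hist2h2aa2 kept their direction and side of the threshold under all 16 alternatives; over the 20 tested genes, 293 of 320 values did so. Clustered genes called higher numbered 6, 5 with library sizes alone or DESeq2, and 10 without the low-count filter, where more genes are tested. The members could change while the number stayed at 6. Without C2S replicate 3, Hist1h2be lost its call and Hist1h2bq gained one. Clustered genes called higher numbered 2 (Hist1h2bc and Hist2h2be) once members sharing over 50% of their 50-base stretches or overlapping another gene over at least 10% of their exons were left out. That setting was chosen with the values in view and keeps 4 tested genes. The clustered log2 ratio was then 0.17 and the H2B ratio 1.29. Clustered genes called lower numbered 0 (edgeR and DESeq2), 1 with library sizes alone, 2 without the filter and 1 with limma on log2(TPM + 1) or log2(TPM + 0.1), and 0 to 2 with a library left out (2 without C2S replicate 3, 1 without PM_control replicate 1). Variants called higher numbered 3, and 1 on either log2 TPM scale; all genes called higher numbered 3123, and 1717 and 1705 on those scales, while with library sizes alone 38.3% of calls were higher, against 48.8%. Directions that turned among genes not called were those of Hist1h2bq (-1.11 and -2.19 on log2(TPM + 1) and log2(TPM + 0.1)) and H2afz (-0.05 with library sizes alone, -0.03 on both TPM scales). With 1 library left out, H2afj ran from -0.32 to 0.01 (0.01 without C2S replicate 2) and H2afz from -0.01 to 0.09 (-0.01 without C2S replicate 1).

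Summed log2 ratios that moved beyond the spread between replicates were, on summed TPM, 0.45 (clustered), 0.02 (variants) and 1.03 (H2B); with library sizes alone, 0.07 (variants); and without the member with the most counts, 0.83 (clustered), -0.11 (variants), -0.86 (H1, without Hist1h1c), -0.20 (H2A, without Hist2h2aa2) and 1.01 (H4, without Hist1h4i). The cause of these changes was not tested. With the replicate block, 6 clustered genes were called higher and 0 lower, and 3 variants higher and 2 lower, as without it. Most clustered genes had too few counts for the test: the 56 below the filter had at most 65 counts over 6 libraries. The parts of depth and of RNA selection in these low counts were not tested.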
